A study of Mus musculus with 12 samples.

Results

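Cytosolic ribosomal proteins were examined in mouse oocytes across the pubertal transition. They were taken as every gene of the count table whose symbol begins with Rpl or Rps followed by a digit, p or a, without the Rps6k kinases and without symbols that contain -ps, which name pseudogenes. This rule found 89 of the 24562 genes listed. Of these, 43 were genes of the large subunit, 31 of the small subunit, and 3 encoded the acidic stalk proteins (Rplp0, Rplp1 and Rplp2). A further 11 were paralogs or retrogenes, which are copies of another ribosomal protein gene. The last, Rps19bp1, encodes a protein that binds Rps19 and is not itself a ribosomal protein.

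RNA-Seq had been performed on 12 pools of 18 to 45 oocytes of the outbred CD-1 strain, with n = 3 pools in each of 4 cohorts. These were PND (postnatal day) 13, PND 16 small, from the lighter mice of that age, PND 16 large, from the heavier ones, and PND 40. No mouse received hormones, and the oocytes came from antral follicles. The study regards PND 13 and PND 16 small oocytes as lacking meiotic competence, the capacity to mature as far as the second metaphase, and PND 16 large and PND 40 oocytes as competent. The pools were described as independent, but no label ties a pool to an animal, so p-values measure the spread between these pools.

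Assembly of the ribosomal subunits from ribosomal RNA and 1 copy of nearly every ribosomal protein begins in the nucleolus. The subunits are then exported to the cytosol. Growing oocytes are known for building a large store of ribosomes, which the egg and early embryo use before new ones are made. Ribosomal protein genes have many processed pseudogenes, intronless copies of the mRNA that were inserted elsewhere in the genome and that may keep nearly the same sequence.

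Few reads were counted on these genes. All 89 together held 0.0944% ± 0.00651 (SD, n = 3) of the counts at PND 13 and 0.0813% ± 0.00692 in PND 16 small. They held 0.0904% ± 0.0102 in PND 16 large and 0.0892% ± 0.00454 at PND 40. Single pools ranged from 0.0744 to 0.102%, and the pools of every cohort overlapped those of at least 1 other. The pools held 17671193 to 27418358 counts each. No 2 pools of a cohort were alike within sampling noise (a chi-square of 9.23 to 49.9 per gene), so each counted as 1 sample. Since each library was made from pooled oocytes and scaled to its own total, less RNA per cell and fewer cells cannot be told apart.

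**Figure D1:**
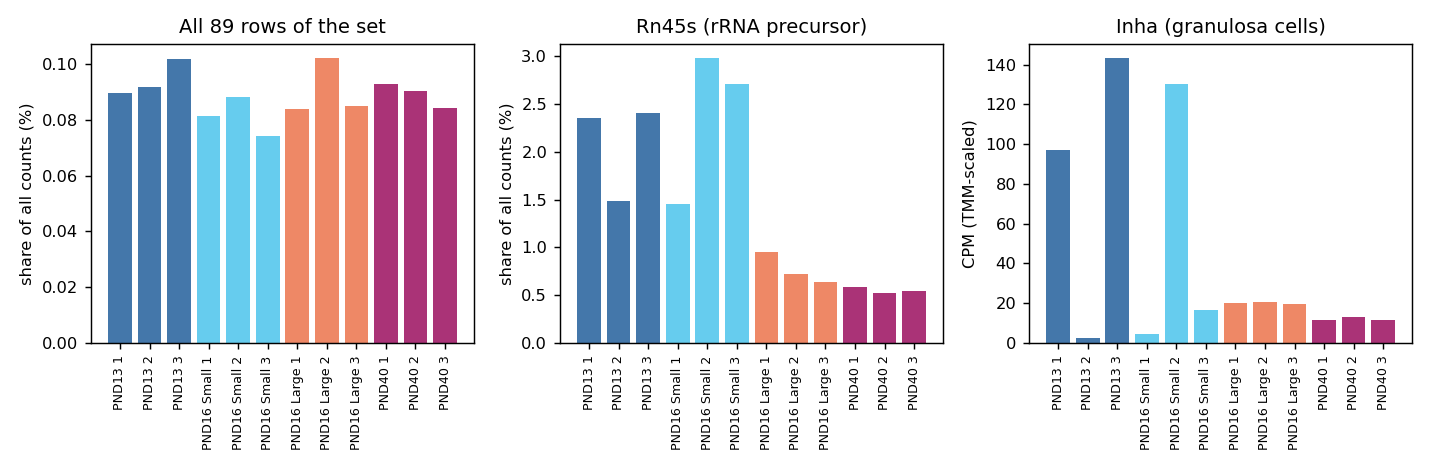
Bars show, for each of the 12 pools, the share of all counts (%) on the 89 genes, the share on Rn45s, the precursor of ribosomal RNA, and the level of the granulosa cell gene Inha in CPM, the count scaled to library size. The share of the 89 genes stays between 0.0744 and 0.102%, while Rn45s is at 1.46 to 2.98% in the PND 13 and PND 16 small pools and at 0.520 to 0.954% in the others. The libraries had been depleted of ribosomal RNA.

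Within this small share, the genes differed greatly from one another. Rpl4, a large-subunit protein that reaches into the exit tunnel, alone took 17.0% of the counts of the set, and the 10 highest genes took 55.2%. To compare genes, counts were scaled to library size with TMM factors (CPM) and divided by coding length. On this scale the highest of the genes tested, Rpl41, lay 306-fold above the lowest, Rps12. Rpl41 (245 CPM per coding kb) has a coding length of only 75 bases, so most of its mRNA lies outside the length used. Among the highest of the others was Rpl4 (120), and the lowest tested were Rpsa (0.897), Rps6 (0.810) and Rps12 (0.800). Rps6 is the small-subunit protein phosphorylated downstream of mTOR, and Rpsa is also known as a laminin receptor.

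A filter on low counts left 62 of the 89 genes for testing, among 13943 genes of the whole table. The 27 that did not pass were 17 large-subunit genes, 7 small-subunit genes and 3 paralogs. They included Rpl3, Rpl9, Rpl10a, Rpl11, Rpl12, Rpl19, Rpl21, Rpl23a, Rpl24, Rpl26, Rpl27, Rpl28, Rpl29, Rpl30, Rpl34, Rpl36a, Rpl38, Rps13, Rps16, Rps18, Rps23, Rps27 and Rps29, with the paralogs Rpl3l, Rpl32l and Rps27rt. Their totals over all 12 pools ran from 0 to 66 counts, with at most 16 in any pool. Rpl26, Rpl3l and Rps27rt had no count in any pool, which allows up to 0.109 to 0.170 CPM per pool (3 counts, counting error only). Rpl3, with 1209 coding bases the longest of the core genes among them, had 19 counts in all.

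These low levels went together with sequence shared with other genes. The reads were 50 bases long, and for each gene the share of 50-base windows of its coding sequence that also occurred in another annotated gene was counted in GENCODE M21 (GRCm38). The median share was 85.0% over the 60 genes tested that had a coding annotation and 100% over the 26 not tested. It was 0% over 13239 protein-coding genes tested. The 9 genes with at most 25% of windows shared had a median level of 53.7 CPM per coding kb. This median was 38.7 for the 7 genes with 25 to 50%, 33.4 for the 6 with 50 to 75%, 8.32 for the 33 with 75 to under 100%, and 0.488 for the 31 with every window shared. Across the 86 genes, Spearman's rho between the shared percentage and the level was -0.61. This is a correlation across genes measured in the same 12 libraries and is given as a description. A gene shared windows with a median of 9 other genes, and Rpl7a did so with 123, of which 120 were annotated pseudogenes.

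The ordering had exceptions in both directions. Rpl41 and Rpl15 were counted well (18.4 and 18.9 CPM) with every window shared, and Rpl3l, a paralog of Rpl3 best known from muscle, was at 0 counts with no window shared. Outside the set, the metabolic enzyme gene Gapdh had 0 to 4 counts per pool. Fau, which encodes a ribosomal protein fused to a ubiquitin-like protein, had every window shared and was at 0.986 CPM at PND 13. Rack1, a protein of the small subunit with 1.44% of windows shared, was at 61.9 CPM in that cohort. How reads that map to several places were treated is not given in the sources used here, and the part of shared sequence in the counts was not tested. The levels are therefore those of reads counted on each gene and may not rank the mRNAs themselves.

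**Figure D2:**
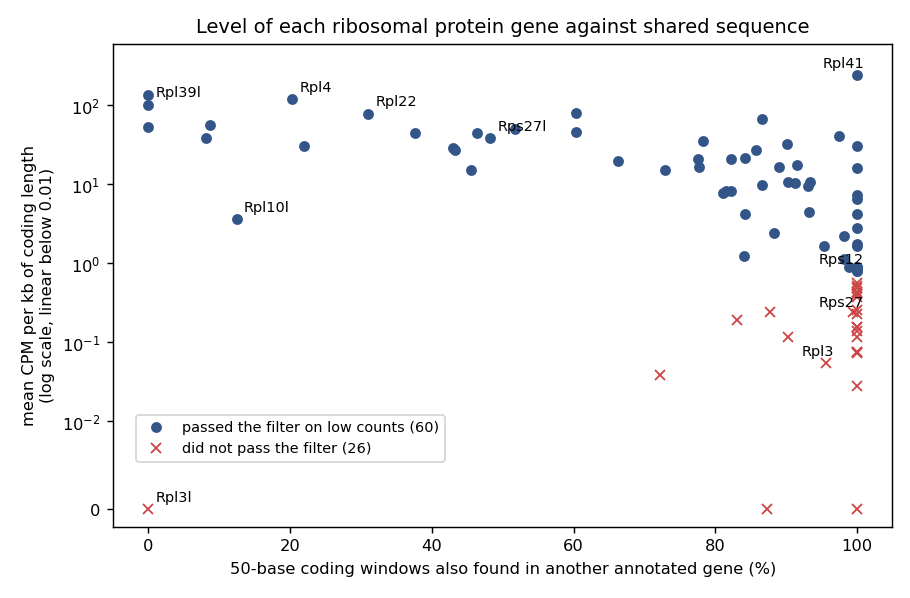
Each point is 1 of the 86 genes with a coding annotation, plotted by the percentage of its 50-base coding windows found in another annotated gene (horizontal) and its mean level in CPM per kb of coding length (vertical, log scale, linear below 0.01). Circles passed the filter on low counts and crosses did not; 25 of the 26 crosses lie above 50% shared.

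The family of Rps27, a small-subunit protein with a zinc finger, holds both a pair with the same coding sequence and a copy that differs. Rps27 (chr3:90212522-90213651, minus strand) and its retrogene Rps27rt (chr9:114982366-114982739, minus strand) have 0 differing bases over 252 coding bases, whereas Rps27l (chr9:66946086-66949516, plus strand) differs from Rps27 at 60 of them. The first 120 coding bases follow, 5′ to 3′, from GENCODE M21 transcripts, with capitals where a copy differs from Rps27.
Rps27: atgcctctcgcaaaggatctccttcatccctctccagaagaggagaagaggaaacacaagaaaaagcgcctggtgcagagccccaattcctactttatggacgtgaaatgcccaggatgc
Rps27rt: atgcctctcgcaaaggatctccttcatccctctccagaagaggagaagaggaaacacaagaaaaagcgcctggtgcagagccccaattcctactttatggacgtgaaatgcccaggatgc
Rps27l: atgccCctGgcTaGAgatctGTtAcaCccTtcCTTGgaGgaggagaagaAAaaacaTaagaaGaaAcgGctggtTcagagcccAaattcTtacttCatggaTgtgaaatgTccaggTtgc
Rps27 and Rps27rt cannot be told apart by a read within the coding sequence, and they had 14 and 0 counts over the 12 pools. Rps27l, whose longest run identical to Rps27 is 11 bases but which shares 48.3% of its windows with 4 annotated pseudogenes, had 2744 counts. Its level was 9.58 CPM ± 0.944 at PND 13, 9.42 ± 0.791 in PND 16 small, 11.5 ± 1.29 in PND 16 large and 8.59 ± 1.06 at PND 40, and it was called in no comparison.

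To ask which of the genes differed between cohorts, the 6 pairs of cohorts and competent against non-competent oocytes were tested with edgeR's quasi-likelihood test and Benjamini-Hochberg adjustment over all 13943 genes. A gene was called at an adjusted p of at most 0.05 and a change of at least 1.5-fold. Few of the 62 were called. In PND 16 small vs. PND 13, 1 gene was called (1.61%, against 0.373% of all genes tested). In PND 16 large vs. PND 13, 3 were called (4.84% against 13.3%), and in PND 40 vs. PND 13, 5 were (8.06% against 18.9%). There was 1 in PND 16 large vs. PND 16 small (1.61% against 6.19%) and 4 in PND 40 vs. PND 16 small (6.45% against 17.2%). In competent vs. non-competent oocytes 2 were called (3.23% against 15%). PND 40 vs. PND 16 large gave 0 calls by edgeR against 3.66% of all genes, with 5 genes of the set (22.4% of all genes) at an unadjusted p under 0.05 and 2 calls by DESeq2 (5.61% of all genes). The comparisons share cohorts and are not independent.

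Called at any size of change, the share of the set was again below that of all genes except in the first pair, where the share of all genes was unstable. It was 1 of 62 against 0.925% in PND 16 small vs. PND 13 (7.82% with DESeq2, which also called 1 of 62, 12% without PND 16 small pool 1 and 0.0421% without pool 3), 4 against 25.6% in PND 16 large vs. PND 13 and 7 against 33.1% in PND 40 vs. PND 13. It was 2 against 12.3% in PND 16 large vs. PND 16 small, 7 against 30.2% in PND 40 vs. PND 16 small, 0 against 6.83% in PND 40 vs. PND 16 large and 5 against 30.7% in competent vs. non-competent oocytes. The genes of the set were also measured less precisely. Their median standard error was 0.24 to 0.25 (log2) in the pairs of cohorts, against 0.20 for all genes, and within the set it was about 0.16 for the 15 genes with at most 50% of windows shared and 0.30 for the 45 above that. Pools did not overlap between cohorts for 9 of the 62 genes in PND 16 small vs. PND 13 (all genes tested, 18.1%), 11 in PND 16 large vs. PND 13 (45.5%), 14 in PND 40 vs. PND 13 (50.8%), 15 in PND 16 large vs. PND 16 small (31.5%), 19 in PND 40 vs. PND 16 small (43.9%) and 8 in PND 40 vs. PND 16 large (39.3%).

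Single pools moved these counts at 1.5-fold, and often the share of all genes with them. PND 16 small vs. PND 13 had 0 calls without PND 13 pool 3 (all genes 0.0281%) or PND 16 small pool 3 (0.0351%) and 2 without PND 16 small pool 1 (5.7%). PND 16 large vs. PND 13 had 0 without PND 13 pool 2 (13.5%) or PND 16 large pool 1 (8.06%), and 1 without PND 16 large pool 3 (10.1%). PND 40 vs. PND 13 had 9 without PND 13 pool 2 (20.4%), 3 without PND 13 pool 1 (15.8%) or 3 (13.6%) or PND 40 pool 1 (14.3%) or 2 (14.8%), and 2 without PND 40 pool 3 (15%). PND 16 large vs. PND 16 small had 2 without PND 16 small pool 1 (5.67%) or PND 16 large pool 3 (5.04%), 3 without PND 16 small pool 2 (7.99%) and 0 without PND 16 small pool 3 (4.92%). PND 40 vs. PND 16 small had 1 without PND 40 pool 1 (12.9%) and 2 without PND 40 pool 2 (13.5%). Competent vs. non-competent oocytes had 1 without PND 13 pool 1 or 3, PND 16 small pool 2 or any PND 40 pool, where all genes had 11.9 to 14.9%.

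The median log2 fold change of the 62 genes ran from -0.11 in PND 16 small vs. PND 13 (all genes -0.03) to 0.17 in PND 16 large vs. PND 16 small (all genes -0.02). It was 0.08 in PND 16 large vs. PND 13 (-0.01 with scaling by total counts alone, which moved all genes to -0.13), 0.05 in PND 40 vs. PND 13 (-0.02 with that scaling), 0.03 in PND 40 vs. PND 16 small, -0.02 in PND 40 vs. PND 16 large (0.00 with that scaling) and 0.07 in competent vs. non-competent oocytes. With 1 pool left out these medians ran from -0.14 to -0.03 in the first pair named, from 0.08 to 0.26 in PND 16 large vs. PND 16 small, from 0.02 to 0.11 in PND 16 large vs. PND 13 and from 0.03 to 0.10 for competence. The median turned to -0.01 in PND 40 vs. PND 13 without PND 40 pool 1 and to 0.05 in PND 40 vs. PND 16 large without PND 16 large pool 2, and was 0.00 in PND 40 vs. PND 16 small without PND 16 small pool 3. PND 13 pools 1 and 3 and PND 16 small pool 2 had the highest granulosa cell markers. Without them, which leaves PND 13 pool 2 alone in its cohort, the median was -0.01 in PND 16 small vs. PND 13. It was then 0.25 in PND 16 large vs. PND 16 small, 0.11 in PND 40 vs. PND 16 small and 0.14 for competence. The share of the 62 within 1.5-fold was nearest to that of all genes in PND 40 vs. PND 16 small (71%, against 65.5%). It was furthest in competent vs. non-competent oocytes, where 57 of the 62 lay within 1.5-fold (91.9%, against 72.8% of all genes). By subunit, the medians in that comparison were 0.11 for the 26 large-subunit genes, 0.02 for the 24 small-subunit genes, 0.21 for the 3 stalk genes and 0.21 for the 8 paralogs. At 1.5-fold, where 0.373 to 18.9% of all genes were called, no small-subunit or stalk gene was called in any comparison. The 26 large-subunit genes had at most 2 higher and at most 1 lower in a comparison. The difference between subunits was not tested.

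**Figure D3:**
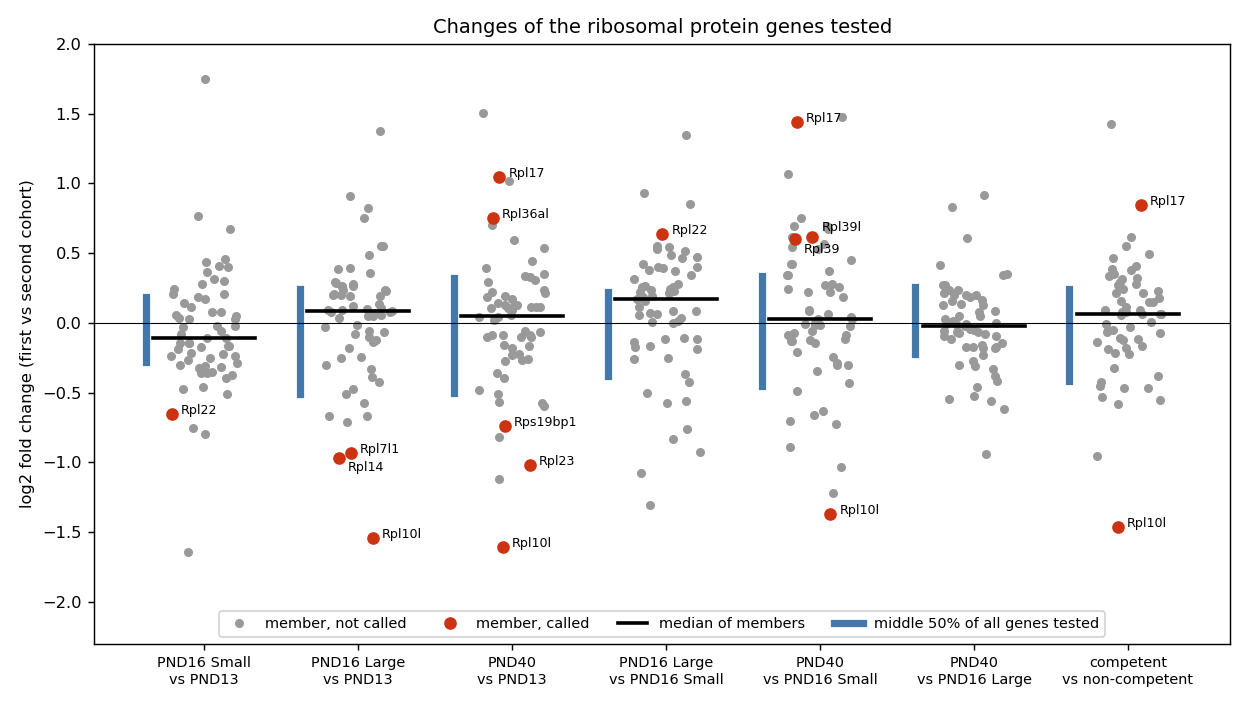
Log2 fold changes of the 62 genes tested (points) in the 7 comparisons, with called genes in red and named, the median of the 62 as a black line and the middle 50% of all 13943 genes as a blue bar. The medians lie between -0.11 and 0.17, and Rpl10l is the lowest called gene in 4 comparisons.

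Rpl10l had the lowest fold change of any called gene of the set. It is an autosomal retrogene of the X-linked Rpl10, which encodes a large-subunit protein that joins late in assembly, and it is best known for replacing Rpl10 in male germ cells. Rpl10l lies at chr12:66283379-66284401 (minus strand), and its coding sequence is 84.7% identical to that of Rpl10, with a longest identical run of 23 bases, so 50-base reads can be assigned between them. Of the coding windows of Rpl10l, 12.5% are shared, with 1 other gene, an annotated pseudogene. The first 120 of 642 coding bases are shown, with capitals at the 18 bases that differ.
Rpl10: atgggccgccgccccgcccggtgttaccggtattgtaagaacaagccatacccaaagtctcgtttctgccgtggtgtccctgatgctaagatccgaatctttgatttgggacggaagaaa
Rpl10l: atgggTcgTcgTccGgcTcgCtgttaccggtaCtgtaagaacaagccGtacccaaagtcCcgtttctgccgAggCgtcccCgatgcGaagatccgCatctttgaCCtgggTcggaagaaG
Rpl10l was at 3.39, 4.30 and 3.36 CPM in the PND 13 pools and at 3.98, 2.18 and 3.20 in the PND 16 small pools. It was at 0.614, 1.78 and 1.39 CPM in the PND 16 large pools and at 1.29, 0.637 and 1.69 at PND 40. Every competent pool lay below every non-competent pool, as was so for 2 genes of the set (Rpl14 was the other) and for 14.7% of all genes in either direction.

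Rpl10l fell by 1.46 on the log2 scale in competent vs. non-competent oocytes (SE 0.30, edgeR adjusted p = 0.00251), by 1.54 in PND 16 large vs. PND 13 (SE 0.44, adjusted p = 0.0216), by 1.61 in PND 40 vs. PND 13 (SE 0.44, adjusted p = 0.0136) and by 1.37 in PND 40 vs. PND 16 small (SE 0.44, adjusted p = 0.0323). In PND 16 large vs. PND 16 small the change was -1.30 (adjusted p = 0.0699), with an adjusted p = 0.028 by DESeq2 and 0.0499 by edgeR without PND 16 small pool 2. The call over all competent pools held with each pool left out in turn, and without PND 13 pools 1 and 3 and PND 16 small pool 2 together (-1.63, adjusted p = 0.00927), the 3 pools with the highest granulosa cell markers. The pairwise calls were less firm. PND 16 large vs. PND 13 was lost without PND 13 pool 2 (adjusted p = 0.0507), PND 16 large pool 1 (0.0865) or PND 16 large pool 3 (0.0529), and PND 40 vs. PND 13 without PND 40 pool 2 (0.061). PND 40 vs. PND 16 small was lost without PND 16 small pool 1 (0.0871) or 3 (0.0611) and without PND 40 pool 1 (0.0783) or 2 (0.122), and in a model of only those cohorts (0.0631). Without the 3 pools of high granulosa markers the adjusted p of these pairs was 0.0806, 0.0593 and 0.036. Rpl10, with every window shared, had 1 to 32 counts per pool, and no comparison called it.

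Rpl22 was lower in PND 16 small than in each other cohort. It encodes a large-subunit protein that the ribosome can do without and that has a paralog, Rpl22l1. It lies at chr4:152325742-152334071 (plus strand). Of the coding windows of Rpl22, 31.0% are shared, with 4 other genes, all annotated pseudogenes. Rpl22 was at 34.0, 33.7 and 34.2 CPM in the PND 13 pools, at 20.7, 25.3 and 18.8 in PND 16 small, at 33.1, 36.0 and 31.9 in PND 16 large and at 31.9, 32.6 and 30.2 at PND 40. All 3 PND 16 small pools lay below the 9 others. Against each other cohort singly, PND 16 small pools did not overlap for 18.1 to 43.9% of all genes tested, in either direction. Rpl22 fell by 0.65 in PND 16 small vs. PND 13 (SE 0.12, adjusted p = 0.0318). It rose by 0.64 in PND 16 large vs. PND 16 small (SE 0.12, adjusted p = 0.00502) and by 0.55, short of 1.5-fold, in PND 40 vs. PND 16 small (SE 0.12, adjusted p = 0.00357).

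The difference of Rpl22 between the PND 16 cohorts passed both criteria with each pool left out except PND 16 small pool 3, where it was 0.55 (adjusted p = 0.017), and it was 0.77 (adjusted p = 0.00324) without the 3 pools named above. The difference from PND 13 was lost without PND 13 pool 3 (adjusted p = 0.153) or PND 16 small pool 3 (0.0939), without the 3 pools (0.0944), and in a model of those 2 cohorts alone (0.383). Rpl22l1 was 1.41 CPM ± 0.534 at PND 13, 1.13 ± 0.461 in PND 16 small, 1.66 ± 0.519 in PND 16 large and 1.91 ± 0.179 at PND 40, and was not called. Its change was 0.55 in PND 16 large vs. PND 16 small (SE 0.45).

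Rpl39 and its paralog Rpl39l were both higher at PND 40 than in PND 16 small. Rpl39 is a short protein of the exit tunnel, and Rpl39l is a paralog known from male germ cells. Rpl39 (chrX:37082520-37085402, minus strand) shares 86.5% of its windows with other genes, mostly pseudogenes, whereas Rpl39l (chr16:10170226-10174911, plus strand) shares none. The whole coding sequences of 153 bases are shown because they differ enough to separate the genes. Capitals mark the 23 differing bases, and the longest identical run is 38 bases.
Rpl39: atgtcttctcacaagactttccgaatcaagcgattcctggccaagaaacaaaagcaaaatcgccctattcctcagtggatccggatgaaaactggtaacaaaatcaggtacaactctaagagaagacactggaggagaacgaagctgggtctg
Rpl39l: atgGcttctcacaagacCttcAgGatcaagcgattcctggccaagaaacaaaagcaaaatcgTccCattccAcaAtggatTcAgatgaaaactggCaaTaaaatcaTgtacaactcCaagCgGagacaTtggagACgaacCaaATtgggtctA
Rpl39l was at 14.0, 18.9 and 12.5 CPM in the PND 13 pools and at 13.8, 11.4 and 11.98 in PND 16 small. It was at 16.4, 16.4 and 15.6 in PND 16 large and at 20.2, 19.0 and 17.8 at PND 40. Its PND 40 and PND 16 small pools did not overlap, while PND 13 pool 2 reached into the PND 40 range. Rpl39l rose by 0.62 in PND 40 vs. PND 16 small (SE 0.16, adjusted p = 0.00962). Without PND 16 small pool 2 the change was 0.56 (adjusted p = 0.0345), without PND 40 pool 1 it was 0.58 (0.0413), and without the 3 pools named above it was 0.57 (0.0141), each just short of 1.5-fold. In competent vs. non-competent oocytes it was 0.35 (adjusted p = 0.0516).

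Rpl39 was at 10.7, 10.6 and 10.4 CPM in the PND 13 pools, at 8.84, 8.63 and 5.52 in PND 16 small, at 10.9, 10.6 and 11.5 in PND 16 large and at 11.5, 13.7 and 9.92 at PND 40. As for Rpl22, the 3 PND 16 small pools were the lowest of the 12. Rpl39 rose by 0.60 in PND 40 vs. PND 16 small (SE 0.19, adjusted p = 0.0296). This was lost without PND 16 small pool 3 (adjusted p = 0.0903), PND 40 pool 1 (0.0676) or PND 40 pool 2 (0.131), and in a model of those cohorts alone (0.108), and held without the 3 pools (0.70, adjusted p = 0.044). The changes of Rpl39 were -0.46 in PND 16 small vs. PND 13 (adjusted p = 0.211) and 0.52 in PND 16 large vs. PND 16 small (adjusted p = 0.0946).

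Rpl17, which lines part of the exit tunnel, was highest at PND 40. It was at 2.34, 4.73 and 2.95 CPM in the PND 13 pools, at 3.94, 1.66 and 2.02 in PND 16 small, at 3.64, 4.14 and 3.22 in PND 16 large and at 7.98, 5.77 and 7.02 at PND 40. All 3 PND 40 pools lay above the 9 others. Against each other cohort singly, PND 40 pools did not overlap for 39.3 to 50.8% of all genes tested, in either direction. Rpl17 rose by 1.44 in PND 40 vs. PND 16 small (SE 0.35, adjusted p = 0.00746 by edgeR), which held with each pool left out, by 1.05 in PND 40 vs. PND 13 (adjusted p = 0.0313) and by 0.84 in competent vs. non-competent oocytes (adjusted p = 0.0439).

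The call of Rpl17 in PND 40 vs. PND 13 was lost without PND 13 pool 1 (adjusted p = 0.114) or 3 (0.105) and without PND 40 pool 1 (0.105) or 3 (0.0758). That in competent vs. non-competent oocytes was lost without PND 13 pool 1 (0.088) or 3 (0.0736), PND 16 small pool 2 (0.0864) or 3 (0.0813), or any PND 40 pool (0.0797 to 0.112), and with scaling by total counts alone (0.0606) or no filter (0.0511). Without the 3 pools named above these changes were 0.55 (adjusted p = 0.389) and 0.57 (0.294), and that from PND 16 small was 1.21 (0.0169). Every coding window of Rpl17 is shared, with 51 other genes, of which 50 are annotated pseudogenes.

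Between the competent cohorts, Rpl15, a core large-subunit protein, and Rpl7l1 had the smallest adjusted p of the set. Rpl15 was at 22.1, 23.8 and 20.9 CPM in PND 16 large and at 14.7, 14.2 and 14.7 at PND 40, with no overlap, and its PND 13 pools (24.6, 16.8 and 23.1) spread more widely than either. Its change in PND 40 vs. PND 16 large was -0.62 (SE 0.19, adjusted p = 0.0717), that of Rpl7l1 was 0.83 (SE 0.30, adjusted p = 0.127) and that of Rpl17 was 0.91 (SE 0.34, adjusted p = 0.13). DESeq2 called Rpl15 (adjusted p = 0.0247) and Rpl7l1 (0.0394), and edgeR on these cohorts alone called Rpl15 (0.0021) and Rpl17 (0.00802).

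**Figure D4:**
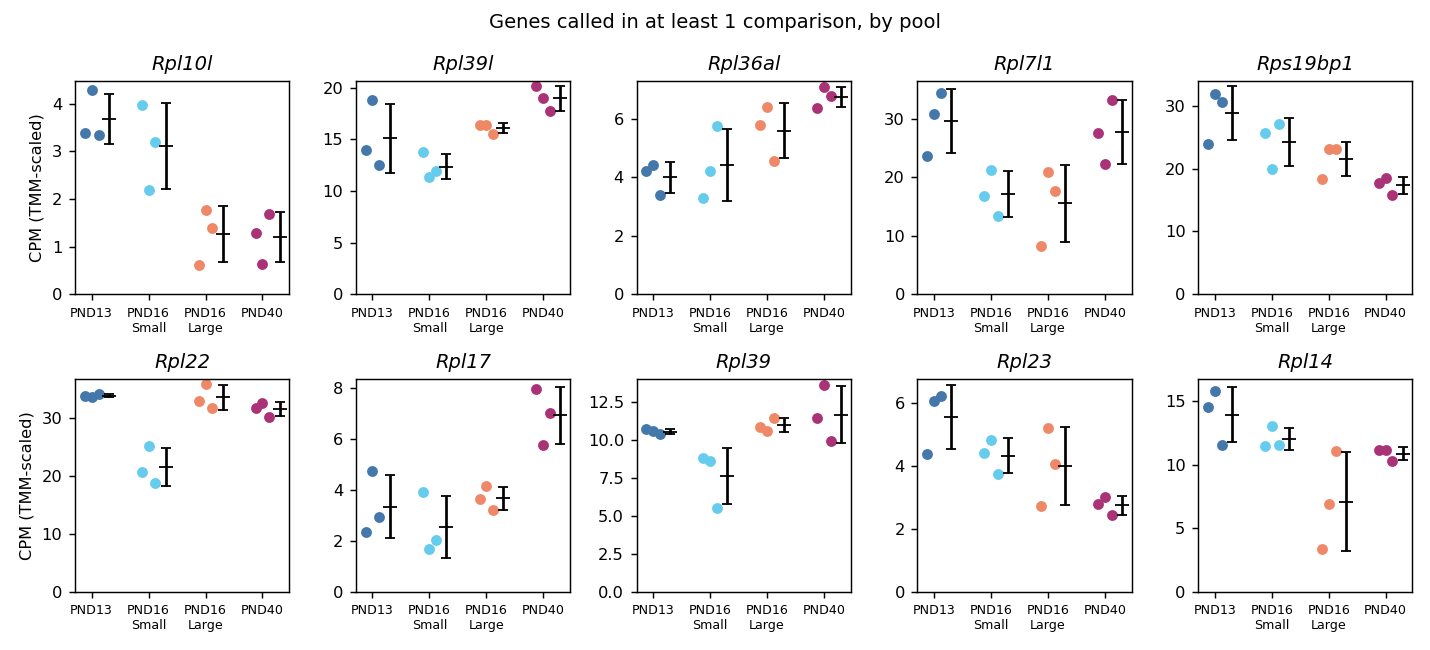
CPM in each pool (points) of the 10 genes called in at least 1 comparison, by cohort, with the mean and SD of the 3 pools in black. Competent pools of Rpl10l lie below all non-competent pools, the PND 16 small pools of Rpl22 and Rpl39 are the lowest of the 12, and the PND 40 pools of Rpl17 are the highest.

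Rpl36al was higher, and Rps19bp1 lower, at PND 40 than at PND 13. Rpl36al, a paralog of Rpl36a, was at 4.20, 4.42 and 3.40 CPM in the PND 13 pools, at 3.30, 4.22 and 5.75 in PND 16 small, at 5.81, 6.43 and 4.58 in PND 16 large and at 6.39, 7.09 and 6.80 at PND 40. Every PND 40 pool lay above every PND 13 pool. It rose by 0.75 in PND 40 vs. PND 13 (SE 0.24, adjusted p = 0.0291) and by 0.55 in competent vs. non-competent oocytes (adjusted p = 0.0283), short of 1.5-fold. The first call was lost without any 1 of 5 pools, PND 13 pool 1 (adjusted p = 0.0576) or 3 (0.11) or PND 40 pool 1 (0.0587), 2 (0.0847) or 3 (0.0715), and without the 3 pools named above (0.62, adjusted p = 0.283). Every coding window of Rpl36al is shared, with 3 other genes, of which 2 are annotated pseudogenes. Its partner Rpl36a had 46 counts over the 12 pools and was not tested.

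Rps19bp1 was at 23.98, 31.96 and 30.7 CPM in the PND 13 pools, at 25.8, 20.0 and 27.2 in PND 16 small, at 18.4, 23.1 and 23.1 in PND 16 large and at 17.7, 18.5 and 15.8 at PND 40. The cohort means descended in that order, and the PND 40 pools did not overlap those of PND 13. It fell by 0.74 in PND 40 vs. PND 13 (SE 0.16, adjusted p = 0.00299), which held with each pool left out and without the 3 pools named above (-0.88, adjusted p = 0.00843). It also fell by 0.49 in PND 40 vs. PND 16 small (adjusted p = 0.0299) and by 0.45 in competent vs. non-competent oocytes (adjusted p = 0.0166), both short of 1.5-fold. None of its coding windows is shared with another gene.

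The other called genes were Rpl23, Rpl14 and Rpl7l1. Rpl23, a large-subunit protein that also binds Mdm2, was at 4.39, 6.06 and 6.22 CPM at PND 13 and at 2.79, 3.03 and 2.43 at PND 40, with no overlap. It fell by 1.02 in PND 40 vs. PND 13 (SE 0.27, adjusted p = 0.012), which was lost without PND 40 pool 3 (adjusted p = 0.053) or without the 3 pools named above (0.0633). Of the coding windows of Rpl23, 86.5% are shared, with 3 other genes, all annotated pseudogenes. Rpl14 was at 14.5, 15.7 and 11.5 CPM at PND 13 and at 3.35, 6.87 and 11.1 in PND 16 large, where pool 1 was far below pool 3. It fell by 0.97 in that comparison (adjusted p = 0.0333), which was lost without PND 13 pool 1 (0.0787) or 2 (0.0758) or PND 16 large pool 1 (0.0693) or 2 (0.0899), without the 3 pools (0.134) and in a model of those cohorts alone (0.109). Of the coding windows of Rpl14, 77.7% are shared with 1 other gene, an annotated pseudogene. The pseudogene Rpl14-ps1 was at 6.45, 2.54 and 5.44 CPM in the PND 13 pools and at 5.07, 6.47 and 3.50 in PND 16 large. The part of shared sequence in the change of Rpl14 was not tested. Rpl7l1, a paralog of Rpl7, was at 23.7, 30.8 and 34.5 CPM at PND 13 and at 8.22, 20.9 and 17.6 in PND 16 large. It fell by 0.93 (adjusted p = 0.0407), which was lost without PND 13 pool 2 (0.0757) or 3 (0.136) or PND 16 large pool 1 (0.0831) or 3 (0.0694), without the 3 pools (0.178), with no filter (0.0687) and in a model of those cohorts alone (0.0879). Rpl7l1 was at 27.7 CPM ± 5.50 at PND 40, close to its 29.7 ± 5.48 at PND 13, and Rpl7 was not called. Of the coding windows of Rpl7l1, 21.9% are shared, with 3 other genes, all annotated pseudogenes.

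Rpl4, the gene of the set with the most counts, was called in no comparison. Rpl4 was at 142 CPM ± 10.04 at PND 13, 145 ± 21.3 in PND 16 small, 163 ± 9.41 in PND 16 large and 155 ± 7.92 at PND 40. Its change in competent vs. non-competent oocytes was 0.15 with an SE of 0.07 (adjusted p = 0.131). Neither of the pair Rps4l and Rps4x was called. Rps4x was at 25.02 CPM ± 1.24 at PND 13 and 25.7 ± 2.94 at PND 40, and Rps4l, annotated as a transcribed pseudogene, at 14.9 ± 6.13 and 21.6 ± 1.86. Rpl37rt, annotated likewise, was at 29.1 ± 1.76 and 31.5 ± 1.23.

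Rplp1, a protein of the stalk that recruits elongation factors, passed the adjusted p in 3 comparisons at less than 1.5-fold. It rose by 0.49 in PND 16 large vs. PND 16 small (adjusted p = 0.0256), by 0.42 in PND 40 vs. PND 16 small (0.0233) and by 0.34 in competent vs. non-competent oocytes (0.0184). Rpl15 and Rps3 fell by 0.57 and 0.48 in PND 40 vs. PND 13 (0.0361 and 0.0415). Some genes with large changes that were not called spread widely between pools. Rpl35a, with pools from 0 to 5.50 CPM, was at 1.43 in competent vs. non-competent oocytes with an SE of 0.82, and Rps2, with pools from 0 to 4.61 CPM, at -1.64 in PND 16 small vs. PND 13 with an SE of 1.41.

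Other genes of the translation machinery were counted from separate lists. Of 21 genes for elongation factors and other mRNAs translated under the same control as those of ribosomal proteins (with Fau and Rack1), 1 rose and 1 fell at 1.5-fold in competent vs. non-competent oocytes. These were Eif4a2, a helicase of the initiation complex (0.59, adjusted p = 0.00033), and Pabpc1, the poly(A) binding protein (-0.67, adjusted p = 0.000684). Of 24 genes for chaperones and partners of ribosomal proteins, none rose and 6 fell at 1.5-fold (all genes either way 15%), namely Tsr2 (-1.33), Grwd1 (-0.63), Nob1 (-0.74), Zfp622 (-1.46), Habp4 (-0.70) and Larp1 (-0.72). At any size of change 5 also rose, by 0.26 to 0.34, namely Pdcd2l, Eif6, Sbds, Larp4 and Eif5a. The median log2 fold change of the 24 genes was -0.02 (all genes -0.005). Tsr2 and Grwd1 escort Rps26 and Rpl3, Nob1 and Zfp622 act in subunit maturation, and Larp1 binds the mRNAs of ribosomal proteins. Of 77 mitochondrial ribosomal protein genes tested, 3 rose and 2 fell at 1.5-fold, with 14 and 4 at any size and a median of 0.14. Counted at any size of change, 19% of the first list, 45.8% of the second and 23.4% of the third were called, beside 8.06% of the cytosolic set and 30.7% of all genes. The median SE was 0.10, 0.10 and 0.14 in these lists and 0.18 in the cytosolic set, and the difference between lists was not tested. At 1.5-fold, 1 of the 77 mitochondrial genes rose and 5 fell in PND 40 vs. PND 13 (all genes 18.9%). In PND 16 large vs. PND 13, 1 rose and 1 fell (13.3%), and in PND 40 vs. PND 16 small, 8 rose and 3 fell (17.2%). Their median was -0.09 in PND 16 small vs. PND 13 (cytosolic set -0.11). In PND 16 large vs. PND 16 small it was 0.17 in both sets.

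Markers of other cells were checked in the same pools. Summed over 12 oocyte genes the level was 15295 to 19727 CPM, with none at 0. Over 17 granulosa and cumulus genes it was 874, 414 and 1014 CPM in the PND 13 pools, 459, 948 and 532 in PND 16 small, 505 to 550 in PND 16 large and 424 to 473 at PND 40, also with none at 0. Inha was at 97.1 and 143 CPM in PND 13 pools 1 and 3 and at 130 in PND 16 small pool 2, against 2.34 to 20.7 in the other 9 pools. These are the 3 pools left out together above. They are all non-competent, so granulosa cell RNA moved with part of the comparison, and its part in the changes of ribosomal protein genes was not tested beyond the values given without those pools. The rRNA precursor Rn45s took 1.46 to 2.98% of counts in the 6 non-competent pools and 0.520 to 0.954% in the 6 competent pools. The libraries had been depleted of ribosomal RNA, so these shares are what remained. The part of Rn45s in the changes was not tested. Summed levels were at most 2.88 CPM for 6 blood and immune genes, of which 2 to 5 were at 0 in a pool. They were 6.01 to 39.1 CPM for 8 theca and stroma genes, of which 0 to 2 were at 0. For 3 endothelial genes, of which 0 or 1 was at 0, they were 55.9 to 70.8 CPM.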

How the data were processed

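The authors deposited raw counts of reads per gene in 12 pools and log2 values made from them (log2 of the count over a size factor per pool, plus 1). The implied size factor was constant within a pool to 7.04e-12%, so only the counts were used. Per the labels, the processing notes name FastQC, STAR, HTSeq, DESeq2, DESeq and HOMER and the build mm10, without versions. Libraries were directional and depleted of ribosomal RNA, and reads were 50 bases long. Whether the counting used strand, and how reads mapping to several places were treated, is not given in the sources used here.

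Genes were kept by filterByExpr (minimum count 10), scaled by TMM and fitted with robust quasi-likelihood in edgeR 4.0.16 (limma 3.58.1, R 4.3.3). The 4 cohorts shared 1 model, and competence a model of 2 groups. Approximate SEs were taken as the size of the log2 change over the root of its F statistic. Each sample's cohort came from its label. Shared windows were counted on either strand in GENCODE M21 transcripts of all annotated genes, which matched all 89 symbols (86 with a coding sequence), and sequences came from the same file. Scripts were tested on simulated data. Counts carry no molecular identifiers.

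The members, gene lists and tests were chosen with earlier results of these data known. Named genes were, per comparison, up to 3 called members per direction by fold change (with no call, the 2 with the smallest adjusted p), the 3 highest and 3 lowest levels per coding length, every paralog tested with its partner, Rps19bp1, Fau and Rack1. Rpl3, Rpl7a, Rpl35a, Rps2, Rps3, Rplp1, Gapdh and the genes named from the other lists were added after their values were seen. Some genes are not reported here. Alternatives were DESeq2 1.42.0, RLE factors, total counts, no filter, a replicate block, only the cohorts compared (for competence, the contrast of cohort means) and leaving out each pool. Leaving out PND 13 pools 1 and 3 and PND 16 small pool 2 together was added after seeing the data.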

Additional observations from a re-analysis of the deposited data

Results flagged for a closer look

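Within the 6 competent or the 6 non-competent pools, 3 genes had 1 pool far from the others by Dixon's test at the 95% level. Over 50 groups tested, chance flags about 1 in 20. Rpl22l1 was at 1.06 CPM in PND 16 large pool 1, against 1.76 to 2.11 in the other competent pools. Rpl10 was at 0.286 CPM in the same pool, against 0.557 to 0.671. Rpl39l was at 18.9 CPM in PND 13 pool 2, against 11.4 to 14.0 in the other non-competent pools. Outside the set, 4 pseudogenes of the table had counts above the limit that a count of 0 allows in at least 1 pool. Rpl14-ps1 had 1107 counts in all, 29 to 164 per pool, Rps19-ps3 had 203, 0 to 41 per pool, Rps15a-ps4 had 66, 0 to 14 per pool, and Rps15a-ps6 had 17, 0 to 7 per pool.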

How the results depend on the processing

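Every median log2 fold change and every share of counts moved by less than the SD between pools under each alternative, although some medians near 0 turned sign, and no direction reversed for a called gene. For the medians this SD was 0.105 (log2), which is larger than most of the medians themselves. Counts of calls were small and moved more. Calls are given at 1.5-fold and at any fold, with the share of all genes in brackets. Leaving out 1 pool gave 0 to 2 (0.0281 to 5.7%) and 0 to 2 (0.0281 to 12%) for PND 16 small vs. PND 13. For PND 16 large vs. PND 13 it gave 0 to 2 (8.06 to 13.5%) and 0 to 3 (13.6 to 23.3%). PND 40 vs. PND 13 had 2 to 9 (13.6 to 20.4%) and 2 to 10 (22.2 to 32.3%). PND 16 large vs. PND 16 small had 0 to 3 (2.33 to 7.99%) and 1 to 5 (3.46 to 13.7%). PND 40 vs. PND 16 small had 1 to 6 (12.9 to 17.8%) and 3 to 8 (20.4 to 30.2%). Competent vs. non-competent oocytes had 1 to 3 (11.9 to 15.6%) and 3 to 7 (24.1 to 31.5%). In PND 40 vs. PND 16 large there were 0 throughout (1.72 to 2.13% and 2.38 to 3.24%). Where an arm was left with 2 pools, the spread came from the pooled model.

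With only the cohorts compared in the model, PND 16 small vs. PND 13 had 0 and 0 calls (all genes 0.0143 and 0.0143%). PND 16 large vs. PND 13 had 1 and 2 (14.2 and 27.8%), and PND 40 vs. PND 16 large had 2 and 2 (7.77 and 20.5%). At any fold there were 1 in PND 16 large vs. PND 16 small (5.06%) and 4 in PND 40 vs. PND 16 small (22.4%). The contrast of cohort means gave 9 calls at any fold for competence (all genes 38.3%). DESeq2 gave 2 at 1.5-fold in PND 16 large vs. PND 16 small (all genes 8.41%) and 2 and 2 in PND 40 vs. PND 16 large (5.61 and 12.5%). For competence it gave 9 at any fold (35.1%). Without the filter there were 2 at any fold in PND 16 large vs. PND 13 (all genes 16.2%) and 1 at 1.5-fold for competence (10.2%). With total counts alone there was 1 at 1.5-fold for competence (15.3%). Without the 3 pools of high granulosa markers PND 16 small vs. PND 13 had 0 and 0 (all genes 0.114 and 0.121%). PND 16 large vs. PND 13 had 1 and 1 (7.16 and 9.93%), and PND 40 vs. PND 13 had 2 and 2 (10.1 and 13.9%). There were 2 and 4 in PND 16 large vs. PND 16 small (7.97 and 14.2%) and 7 at 1.5-fold in PND 40 vs. PND 16 small (17.2%). The cause was not tested. With scaling by total counts alone, all genes had a median of -0.12 in PND 16 small vs. PND 13 (the set -0.20). Over the named genes, 63 combinations of a result and a setting lost a call and 26 gained one.

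Replicate numbers did not pair the pools. Deviations of same-numbered pools correlated at -0.442 to 0.0753, with 0 of 18 pairs above 0.1. With the number as a block, PND 16 small vs. PND 13 had 0 and 0 calls (all genes 0.0717 and 0.0861%). Competence had 1 at 1.5-fold (13.3%), and the other counts stayed within 1.5 times. The block left Rpl22 in PND 16 small vs. PND 13 at an adjusted p of 0.0593, Rpl10l in PND 40 vs. PND 16 small at 0.0511, and Rpl17 in PND 40 vs. PND 13 at 0.0518 and for competence at 0.0674.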
